A study of Homo sapiens with 14 samples.

Results

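The comparison described here followed SW620 cells from day 6 to day 15 of a culture kept without passage, in bulk RNA-seq. SW620 is a colorectal cancer line from a lymph node metastasis. It grows as round, multilayered colonies from which cells move outward late in culture. Its 3 bulk libraries, out of 14 in the series, were a whole culture of day 6 and 2 fractions of day 15, the colonies themselves (inside) and the cells around them (outside). Per the methods of the study, colonies of day 15 were loosened with accutase and passed through a strainer. Cells that passed were taken as outside, and the retained spheres, digested further, as inside. The sources do not say how the culture of day 6 was harvested, so day, harvest and library cannot be told apart. The sample labels call these cells SW620, and the title of the bulk library of day 6 ends in an unexplained 2. A supplementary list of data gives the cells sequenced inside and outside colonies the suffix Flag, and the study uses FLAG for SW620 cells with an empty vector. The vector of the bulk culture of day 6 is not stated there. Single-cell RNA-seq of SW620 and of SW620-TET2CD, which overexpresses the catalytic domain of the DNA demethylase TET2, covered days 6, 9, 12 and 15 with 1 library each, and the study describes its SW620 cells as expressing FLAG. Every bulk condition also had 1 library, so inside and outside are read as 2 libraries of the same day that may come from the same wells.

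A gene was called when its CPM (counts scaled to a common library size with TMM factors) was at least 2-fold apart from day 6 in both day-15 libraries the same way. Ratios are log2((CPM + 1) / (CPM + 1)), which understates the change of low genes. Of 60624 genes, 15868 reached 1 CPM in at least 1 of the 3 libraries. In these, 503 genes were at least 2-fold higher on day 15 in both libraries (3.17%) and 408 were at least 2-fold lower (2.57%), together 911 genes or 5.74%. No gene was 2-fold higher in one day-15 library and 2-fold lower in the other. Taken alone, the inside library had 716 genes at least 2-fold higher (4.51%) and 622 lower (3.92%), and the outside library had 653 higher (4.12%) and 513 lower (3.23%). These counts describe 3 libraries and carry no test. In TPM, which is per length and was computed by the authors, the same fold rule gave 466 higher and 647 lower genes, so that the larger side turned. That run covered 16816 genes with at least 1 TPM in 1 of the 3 libraries and used no TMM factors. Unit, scaling and gene set thus changed together.

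**Figure D1:**
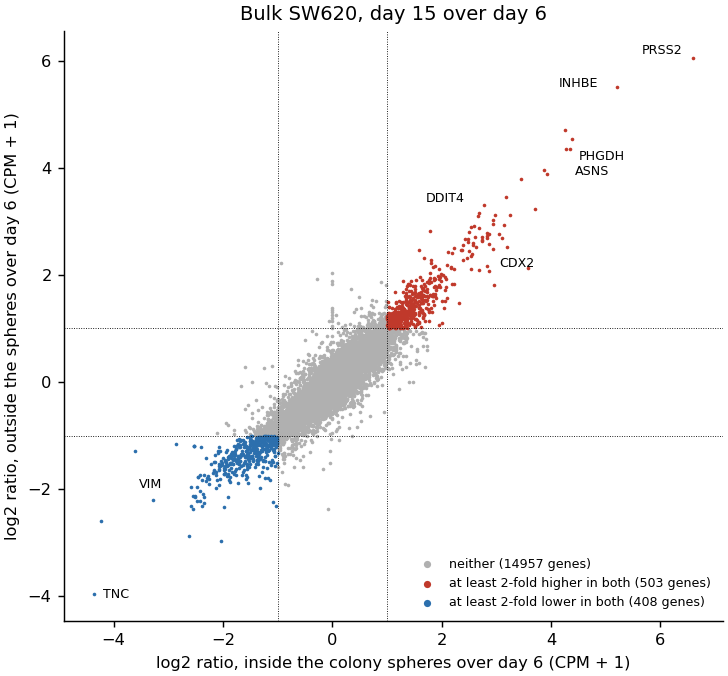
Each point is 1 of 15868 genes, with the log2 ratio of CPM + 1 over day 6 for cells inside the colonies on the x axis and for cells outside on the y axis; dotted lines mark 2-fold. The 503 higher and 408 lower genes lie beyond the lines in both libraries, with PRSS2 farthest up at 6.59 and 6.05 and TNC farthest down at -4.36 and -3.96.

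Expected counts summed to 16470176 on day 6, 25241831 inside and 22895376 outside, and 6.39% to 7.02% of them were mitochondrial. In these libraries 3 counts correspond to 0.119 to 0.182 CPM, taken as the floor of detection, which covers counting error only. The single-cell sums of SW620 rested on 5547 cells and 73808419 UMIs on day 6 and on 6913 cells and 52863197 UMIs on day 15. Before the limits on cells given below, these libraries held 128282918 and 60309495 UMIs, so the limits removed more from day 6. Kept cells had medians of 13479 and 7127 UMIs. The single-cell libraries shared 11 to 31 cell barcodes per pair. Of 7 colorectal epithelial markers past the filter, KRT8 and KRT18 had 5751 and 4280 TPM on day 6, and EPCAM had 407, 442 and 419 TPM on day 6, inside and outside. CDX1 was at 0 in all 3 libraries and CDH17 at 0.82 to 1.22 TPM. The summed epithelial level was 11509 TPM on day 6 and 7234 and 7269 on day 15. Summed fibroblast markers stood at 32.9, 13.7 and 14.2 TPM with COL1A2 and COL3A1 at 0, and most of it was LUM, at 28.8, 10.2 and 10.8 TPM and called lower. Summed immune markers stood at 14.2, 3.36 and 3.28 TPM with CD3E at 0, of which LYZ made up 13.7, 2.63 and 2.70 TPM. LYZ ran the other way in the single-cell sums, as given later, and endothelial markers reached at most 1.70 TPM with KDR at 0. TET2 itself was at 1.38, 1.15 and 1.29 TPM in the SW620 libraries, against 38.1 and 124 TPM in the SW620-TET2CD libraries of day 15, as the labels require.

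Several gene programs that cells switch in dense or starved culture were listed for the comparison. The integrated stress response begins when kinases that sense missing amino acids, misfolded protein or other stress slow translation. ATF4 is then translated, and with partners of the C/EBP family it turns on amino acid synthesis and transport. The cell cycle is run by E2F factors, which drive DNA replication genes, and later by MYBL2 and FOXM1, which drive mitotic genes. Hypoxia-inducible factors (HIF) turn on angiogenic, metabolic and survival genes when oxygen is short. Since bulk RNA mixes all cells of a library, fewer cells in a state and less RNA per cell cannot be told apart below.

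The genes farthest apart between the days included digestive proteases and stress-response genes on the higher side, and matrix, cytoskeletal and S-phase genes on the lower side. PRSS2, which encodes a trypsinogen (chromosome 7, 142760398 to 142774564, plus strand, GRCh38), was at 13.3 TPM on day 6, 1442 inside and 955 outside. INHBE, an inhibin beta subunit of the TGF-beta family, was at 0.87, 56.3 and 76.8 TPM. PHGDH, the first enzyme of serine synthesis, was at 8.48, 194 and 187 TPM. In each of these both day-15 libraries lay far above day 6, and PRSS2 was higher inside than outside (log2 ratios 6.59 and 6.05). ASNS, the asparagine synthetase, was at 11.7, 173 and 176 TPM, and its log2 ratios were 4.28 and 4.34. ASS1, argininosuccinate synthase of the arginine pathway, was at 43.9, 346 and 371 TPM. CBS, cystathionine beta-synthase of the transsulfuration pathway, was at 12.0, 91.6 and 86.3 TPM. The day-15 pair was again the higher one in all 3 genes. The remaining 6 of the 12 coding genes with the highest ratios were PRSS1, MAP1B, ADM2, NEBL, ULBP1 and DDIT4, of which the last 5 had log2 ratios of 2.77 to 3.96. PRSS1 and PRSS2 are close copies in 1 cluster, so how RSEM divided reads between them is uncertain. PRSS1 had 2 expected counts on day 6 and 523 and 636 on day 15, and no fold is given for it.

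On the lower side TNC, the matrix protein tenascin C (chromosome 9, 115019575 to 115118207, minus strand), was at 176 TPM on day 6, 9.89 inside and 11.4 outside. VIM, the intermediate filament vimentin, was at 120, 11.4 and 24.6 TPM. FABP1, a fatty acid binding protein of enterocytes, was at 33.5, 2.46 and 2.85 TPM. Both day-15 libraries of SW620 were low for these genes, and VIM was lower inside than outside, with log2 ratios of -3.28 and -2.21. In the SW620-TET2CD libraries of day 15, VIM was at 41.55 TPM inside and 180 outside, the latter above day 6 of SW620. TNC (18.7 and 8.45 TPM) and FABP1 (1.51 and 0.98 TPM) were low in both of them. RRM2, the small subunit of ribonucleotide reductase, was at 138, 20.8 and 23.9 TPM. TK1, thymidine kinase 1, was at 135, 24.2 and 29.0 TPM. PCLAF, a PCNA-associated factor, was at 113, 16.2 and 21.3 TPM. MT2A, a metallothionein, was at 340, 72.7 and 82.3 TPM. The other members of the 12 lowest coding genes were CLSPN, H2BC11, PIMREG, ESCO2 and GTSE1, with log2 ratios of -1.97 to -2.58. H2BC11 and the metallothioneins belong to families of near-identical copies and carry the same uncertainty as PRSS1.

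**Figure D2:**
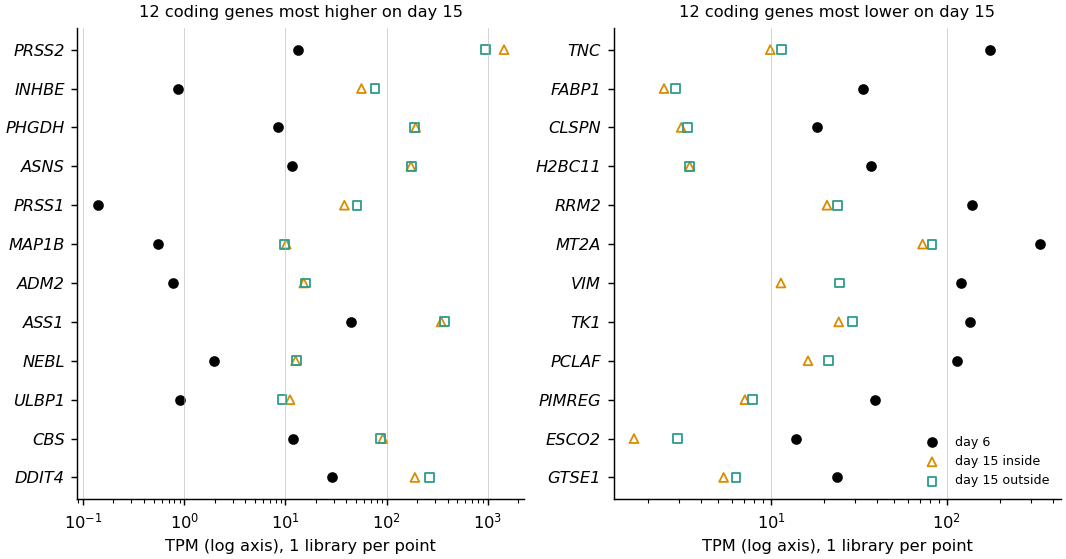
TPM on a log axis in the 3 bulk libraries of SW620 (filled circles day 6, triangles day 15 inside, squares day 15 outside) for the 12 coding genes with the highest and the 12 with the lowest ratios, 1 library per point. Both day-15 points lie on the same side of day 6 for each gene, and VIM has the widest gap between inside and outside among the lower genes, 11.4 against 24.6 TPM.

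Inside and outside lay near each other for nearly all members. The standard deviation of the outside minus inside difference was 0.24 on the log2 scale over the 15868 genes. At least a 2-fold gap between the day-15 libraries was found in 75 of all genes, in 3 of the 503 higher genes and in 10 of the 408 lower ones. The lower genes with such a gap were VIM and 9 others, among them H2AC18, the read-through gene MICOS10-NBL1 and clone-named genes with near-identical copies. Among lower genes 95 of 408 had the more extreme ratio outside, and among higher genes 230 of 503. The median log2 ratio of the lower genes was -1.51 inside and -1.32 outside, and that of the higher genes 1.42 inside and 1.37 outside. For all 15868 genes both medians were 0.00. Since the rule asked for both libraries, these figures describe the members and support nothing further. Protein-coding genes made up 407 of the higher and 357 of the lower members, and lncRNAs 75 and 29. The median member on the higher side went from 3.08 TPM on day 6 to 9.79 inside and 9.13 outside, and on the lower side from 17.3 to 4.92 and 5.83. At least 4-fold in both libraries were 62 higher and 17 lower genes. Of the higher genes 98 were under 1 CPM on day 6, and of the lower genes 49 were under 1 CPM in both day-15 libraries.

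Near the limit the members differed little from genes left out. The higher genes just inside it were ZNF891, DOP1B and PLEKHG4 with nearer ratios of 1.00 to 1.01, and just outside it lay AC010198.2, LINC00653 and RHOBTB1 at 0.998 to 0.999. On the lower side TMPO, ZCCHC12 and RAD51C lay just inside at -1.0001 to -1.0021, and NCAPD2, CNP and ITGB8 just outside at -0.999, -0.997 and -0.993.

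The stress-response list stood out by count. Of 20 genes of the integrated stress response and serine synthesis past the filter, 15 were called higher (background 3.17%) and none lower, and the list's median log2 ratio was 1.34 inside and 1.38 outside. The list was written with earlier results of these data known, so its count is a description. The serine and one-carbon enzymes were all called: PHGDH as above, PSAT1 at 82.1, 241 and 250 TPM, PSPH at 62.7, 187 and 192 TPM, SHMT2 at 265, 611 and 658 TPM and MTHFD2 at 84.3, 188 and 209 TPM. The day-6 library was the lowest for each of them. Among transcription factors, CEBPB went from 8.82 TPM to 55.9 and 53.3, CEBPG from 16.9 to 44.9 and 45.8, and DDIT3, also known as CHOP, from 22.1 to 58.5 and 54.0. ATF4 was at 344, 649 and 674 TPM, with ratios of 0.92 and 1.01 that kept it just under the rule. TRIB3, a pseudokinase that ATF4 and DDIT3 activate, was at 34.1, 205 and 210 TPM. CHAC1, a glutathione-degrading enzyme, was at 6.36, 35.5 and 40.0 TPM. SLC7A11, the cystine importer, was at 4.50, 24.8 and 21.7 TPM, and SLC7A5, the large neutral amino acid transporter, at 81.2, 201 and 173 TPM. VLDLR and GDF15 completed the 15 called genes. Against the same day-6 library, the SW620-TET2CD libraries of day 15 had 19 of the 20 genes at least 2-fold higher inside and 19 outside, against 6.88% and 6.78% of all genes. Line and day differ together in that contrast, and since it shares the day-6 library that chose the called genes, it is no separate evidence for them. Not called were ATF3, ATF4, ATF5, SLC3A2 and FGF21, of which ATF5 had negative ratios (-0.93 and -0.76).

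Promoter letters are shown for 2 of these genes because they hold the composite element that C/EBP and ATF proteins share, searched on both strands as TGATGNAA in the 250 bases before the start. This element was added after the data had been seen. A window came from the RefSeq promoter table (GRCh38.p14) for 11 of the 15 called genes, and 2 of the 11 held it. It was found in 14 of 277 higher members with a window (5.05%), in 2 of 261 lower members (0.766%), in 113 of 9693 genes past the filter (1.17%) and in 308 of 14549 promoters in all (2.12%). Capitals mark the element, which begins at -68 in ASNS (chr7:97872409-97872658, minus strand) and at -209, on the opposite strand, in CHAC1 (chr15:40953221-40953470, plus strand), counted from the start site with -1 as the base before it.
ASNS: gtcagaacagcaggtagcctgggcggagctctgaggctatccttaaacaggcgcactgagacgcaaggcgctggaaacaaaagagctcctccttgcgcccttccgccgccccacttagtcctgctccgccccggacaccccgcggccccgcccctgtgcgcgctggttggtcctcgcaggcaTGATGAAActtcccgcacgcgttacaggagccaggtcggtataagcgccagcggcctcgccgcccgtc
CHAC1: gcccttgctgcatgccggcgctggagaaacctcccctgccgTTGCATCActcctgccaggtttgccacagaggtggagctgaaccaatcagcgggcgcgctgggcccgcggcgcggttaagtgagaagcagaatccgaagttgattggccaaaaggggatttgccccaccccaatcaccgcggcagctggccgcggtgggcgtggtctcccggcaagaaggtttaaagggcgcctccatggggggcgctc
A match is a description of letters and says nothing of binding.

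Nearly all mitosis genes and a majority of the replication genes were called lower. Of 31 mitosis genes past the filter, 30 were called lower (background 2.57%) and none higher, with medians of -1.85 inside and -1.43 outside. ECT2 was the exception, with ratios of -0.98 and -0.64. MKI67, the proliferation marker, was at 56.6 TPM on day 6, 11.3 inside and 15.2 outside. PLK1, the polo-like kinase of mitotic entry, was at 73.2, 12.8 and 19.7 TPM. CCNB1, cyclin B1, was at 194, 44.4 and 63.9 TPM. Day 6 was the highest library for each, and outside lay above inside. CDC20, the activator of the anaphase-promoting complex, was at 84.0, 19.1 and 27.0 TPM, KIF20A, a kinesin of cytokinesis, at 26.5, 4.41 and 7.74 TPM, and CCNA2, cyclin A2, at 22.2, 4.69 and 6.05 TPM. Of 30 DNA replication and licensing genes, 18 were called lower and none higher, with medians of -1.35 and -1.13 and ratios between -2.58 and -0.51. Called were, among others, CLSPN (18.2, 3.08 and 3.33 TPM), an adaptor of the replication checkpoint, and ORC1 (15.4, 3.20 and 3.86 TPM), the largest subunit of the origin recognition complex. Of 9 cell-cycle transcription factors, E2F7, E2F8, FOXM1 and MYBL2 were called lower and MYC higher. FOXM1 was at 64.3, 15.8 and 24.2 TPM and MYBL2 at 58.3, 13.4 and 17.6 TPM, while MYC was at 262, 660 and 683 TPM. UHRF1, which brings DNMT1 to replicating DNA, was the called member of 8 TET and DNA methyltransferase genes, at 60.8, 15.2 and 18.5 TPM, and DNMT1 was at 107, 51.7 and 53.3 TPM. Of 9 replication-dependent histone genes past the filter, H2BC11, H3C2 and H3C8 were called lower. On day 6, inside and outside, H3C2 had 22, 1 and 2 counts and H3C8 had 31, 8 and 7. None of them stayed called when 1 CPM was asked of each library.

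Mitotic promoters are known for a CCAAT box and a cell cycle homology region, and replication promoters for E2F sites, so 3 called genes are shown with these letters in capitals. The homology region was searched as TTTGAA with its variant spelled TTCGAA, and the box by its name, on both strands in the 250 bases before the start. E2F sites were searched in the same windows as the word TTCCCGC, together with the related word TTGGCGC, the related word TTCGCGC and finally the word TTGCCGC. E2F matches may overlap each other. The homology region was in 13 of 24 called mitosis genes with a window (54.2%), in 63 of 261 lower members (24.1%), in 8.82% of genes past the filter and in 11.2% of all promoters. The CCAAT box was in 21 of the 24 (87.5%), in 159 of 261 lower members (60.9%) and 81 of 277 higher members (29.2%), in 35.6% of genes past the filter and in 35.3% of all promoters. E2F letters were in 6 of 16 called replication genes (37.5%), in 15 of the 27 tested (55.6%), in 18.3% of genes past the filter and in 15.2% of all promoters. Base composition was not matched. The windows are chr1:43358731-43358980 (plus strand) for CDC20, chr16:23678639-23678888 (plus strand) for PLK1 and chr1:52404424-52404673 (minus strand) for ORC1. CDC20 holds homology letters at -178 and -65 and CCAAT at -100 and -55, PLK1 holds them at -29 and -73, and in ORC1 overlapping E2F matches begin at -22 and -19.
CDC20: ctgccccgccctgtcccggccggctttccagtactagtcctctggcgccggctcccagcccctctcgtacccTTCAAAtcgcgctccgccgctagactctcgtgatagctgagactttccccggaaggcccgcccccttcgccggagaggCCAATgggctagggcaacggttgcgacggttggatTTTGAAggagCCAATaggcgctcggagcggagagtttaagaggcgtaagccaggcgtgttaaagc
PLK1: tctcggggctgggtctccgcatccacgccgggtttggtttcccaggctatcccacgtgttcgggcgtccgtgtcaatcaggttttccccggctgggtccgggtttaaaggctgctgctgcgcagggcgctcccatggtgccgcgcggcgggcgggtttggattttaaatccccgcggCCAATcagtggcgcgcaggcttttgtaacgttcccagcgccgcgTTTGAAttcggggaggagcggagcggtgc
ORC1: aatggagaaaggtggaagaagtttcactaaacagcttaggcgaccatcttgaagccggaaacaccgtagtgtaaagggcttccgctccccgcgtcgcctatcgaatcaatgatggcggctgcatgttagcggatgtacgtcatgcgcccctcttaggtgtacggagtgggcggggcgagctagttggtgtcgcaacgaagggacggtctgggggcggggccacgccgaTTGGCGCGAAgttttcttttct
The list of lower members was chosen by the bulk ratio alone, and the letters took no part in the rule.

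Of 21 HIF targets outside glycolysis past the filter, DDIT4, STC2, NDUFA4L2 and VEGFA were called higher (19.0%, against 3.17% of all genes) and none lower, and the list's median was 0.15 in both libraries. DDIT4, an inhibitor of mTORC1 that ATF4 also activates, was at 28.9, 190 and 263 TPM. VEGFA, the vascular growth factor, was at 48.7, 166 and 183 TPM, and STC2, a secreted glycoprotein, at 14.8, 80.0 and 94.6 TPM. NDUFA4L2, a mitochondrial protein made in hypoxia, had 1 expected count on day 6 and 171 and 120 on day 15. CA9, a carbonic anhydrase, was at 25.8, 36.0 and 31.3 TPM, and BNIP3L, a mitophagy receptor, at 14.2, 12.2 and 11.8 TPM. The last pair thus stayed close across the 3 libraries. Of 25 glycolysis genes, PFKM was called higher and none lower, with medians of -0.40 and -0.25. In the single-cell test PFKM did not pass (difference -0.28 ± 0.12, adjusted p = 0.0673, edgeR). No gene was called in bulk among 32 nuclear OXPHOS subunits, 24 ribosome biogenesis genes or 24 genes of cholesterol and fatty acid synthesis. Against the day-6 library of SW620, the SW620-TET2CD libraries of day 15 had 14 of the 21 HIF targets at least 2-fold higher inside and 7 outside, against 6.88% and 6.78% of all genes. It shares the day-6 library too, and the gap between inside and outside was not tested. The core of the HIF response element, searched on both strands as ACGTG and with its variant GCGTG, where matches on opposite strands can overlap, was in 13 of 15 HIF targets with a window (86.7%), in 144 of 277 higher members (52.0%), in 148 of 261 lower members (56.7%), in 59.2% of genes past the filter and in 52.2% of all promoters. The DDIT4 window (chr10:72273674-72273923, plus strand) is shown because DDIT4 was called in bulk and also rose in the single-cell test described later, and its capitals mark the core at -219, -125 and -53.
DDIT4: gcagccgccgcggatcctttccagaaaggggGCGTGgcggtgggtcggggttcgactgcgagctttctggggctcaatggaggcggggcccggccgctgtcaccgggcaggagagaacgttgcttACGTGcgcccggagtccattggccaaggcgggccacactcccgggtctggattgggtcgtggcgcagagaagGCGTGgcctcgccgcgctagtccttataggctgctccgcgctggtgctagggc

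The other lists had from 0 to 5 called genes each, to be read against 3.17% called higher and 2.57% called lower among all genes. Among 15 EMT markers past the filter, ITGA5, the fibronectin receptor subunit, was called higher at 7.50, 17.4 and 18.9 TPM, and TNC and VIM lower. ZEB1, a repressor of epithelial genes, was at 3.61, 6.03 and 6.96 TPM and CDH1, E-cadherin, at 71.1, 105 and 88.9 TPM, neither being called. CLDN7, a tight-junction claudin, was the called gene of 22 epithelial junction genes, at 13.7, 66.2 and 68.7 TPM. Of 23 WNT targets, MYC was called. Of 11 intestinal differentiation genes, CDX2, a gut transcription factor, was called higher at 3.21, 39.7 and 21.4 TPM, FABP1 was called lower and 9 were not called. Of 21 autophagy and lysosome genes, WIPI1, GABARAPL1, ULK1 and CTSB were called higher (19.0%) and CTSL lower (4.76%). ULK1, the kinase that starts autophagy, was at 7.72, 23.1 and 23.1 TPM. Among 18 CDK inhibitors and p53 targets, SESN2 and BBC3 were called higher (11.1%) and CDKN2C, CDKN2D and TP53INP1 lower (16.7%). SESN2 and BBC3 also rose and CDKN2C also fell in the single-cell test described later. CDKN2D ran the other way there and rose (difference 0.78 ± 0.19, adjusted p = 0.00391, edgeR). Of 22 immediate early genes, KLF4 and MYC were called higher (9.09%) and FOS, FOSB and NR4A1 lower (13.6%), FOS being at 664, 242 and 264 TPM. In the single-cell test described later, 14 of the 22 rose and 1 fell, against 32.3% and 30.9% of all genes. FOSB rose there (difference 0.57 ± 0.20, adjusted p = 0.026, edgeR), and KLF4 did not pass (difference -0.11 ± 0.20, adjusted p = 0.644, edgeR). In the SW620-TET2CD libraries of day 15, bulk ratios over day 6 of SW620 were 0.75 and 0.59 for FOSB and -1.26 and -0.92 for NR4A1. Of 17 secreted proteases and inhibitors, PRSS1, PRSS2, PRSS3 and SLPI were called higher (23.5%). PRSS1 and SLPI each had 2 counts on day 6, and neither stayed called when 1 CPM was asked of each library. In the single-cell test PRSS2 rose, as given later, and PRSS3 did not pass (difference 0.35 ± 0.19, adjusted p = 0.131, edgeR). Of 5 metallothioneins, MT1E, MT1X and MT2A were called lower (60.0%). Of 18 interferon-stimulated genes OAS3 was called lower, as was CALR, an endoplasmic reticulum chaperone, of 17 chaperones. CDKN2C, OAS3 and H3C8 were not called in TPM, and CALR was not called with upper-quartile or DESeq2 size factors. With 5 CPM added, BBC3, CDKN2C, CDKN2D, KLF4, CALR, MT1E, CTSL and SLPI were not called. Of 9 genes named in the text of the study and past the filter, RORA (0.67, 2.58 and 2.83 TPM) and VEGFA were called higher. The 7 not called included CCND1 (ratios 0.30 and 0.61), JUN (-0.02 and -0.17) and CTNNB1 (-0.48 and -0.59). RORA was not called with 5 CPM added, and in the single-cell sums of SW620 it had 4.46 and 3.95 CPM on days 6 and 15 (difference over both lines 0.48 ± 0.26, adjusted p = 0.124, edgeR). SPARC was under 1 CPM in each library. The study discusses these genes for cultures of this kind, so their count is a description.

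**Figure D3:**
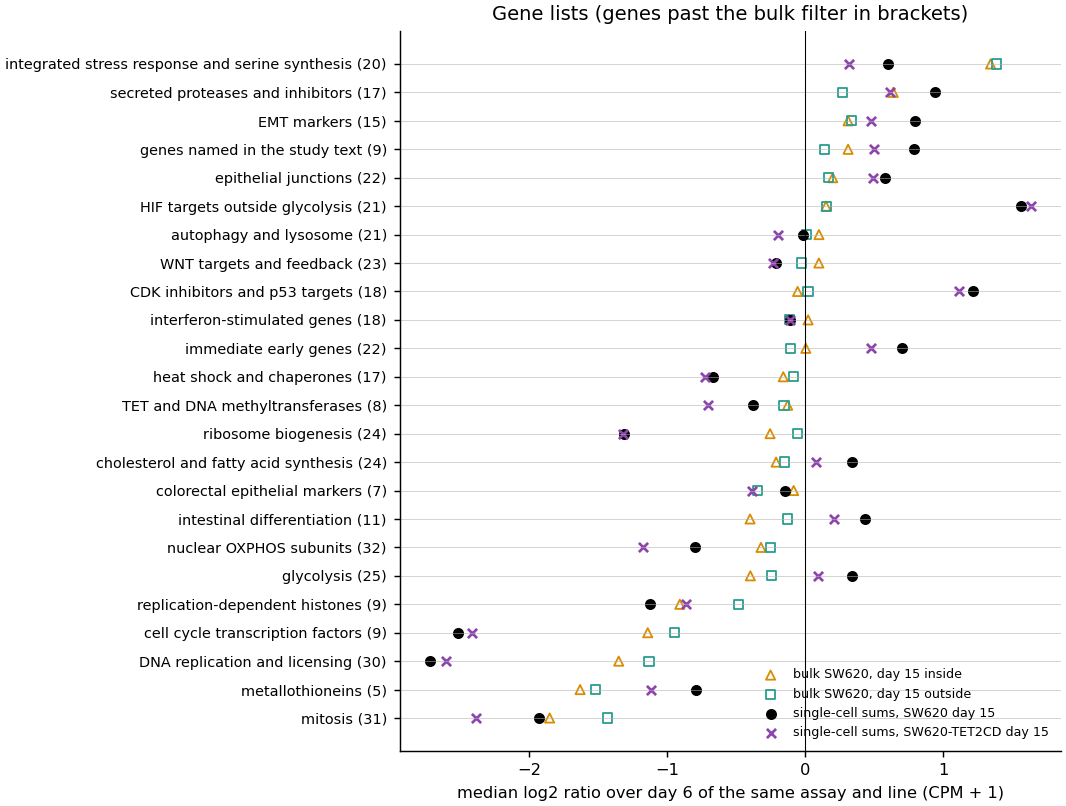
Median log2 ratio over day 6 (x axis, CPM + 1) of each gene list with at least 5 genes past the bulk filter (y axis, number of genes in brackets), for bulk SW620 inside and outside and for the single-cell sums of both lines on day 15. Stress-response genes lie at 1.34 and 1.38 in bulk and at 0.60 in the single-cell sums of SW620, while HIF targets lie at 0.15 in bulk and at 1.57 in the single-cell sums.

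The single-cell libraries of the same line and days, which the rule did not use, were asked whether they ran the same way. UMIs were summed over the kept cells of each library. Of the 503 higher genes 472 were in the single-cell table, and 417 of them (88.3%) had a day-15 over day-6 ratio above 0 in SW620, against 49.3% of the 14754 genes past the bulk filter in both tables. Of the 408 lower genes 382 were in it, and 333 (87.2%) had a ratio below 0, against 49.6%. Of the 472 and 382 genes, 402 and 342 reached 1 CPM in the SW620 sums of day 6 or day 15. The rest lay under 1 CPM on both days. At least 2-fold the same way were 221 of the higher genes (46.8%, background 9.56%) and 266 of the lower genes (69.6%, background 11.6%). At least 2-fold the opposite way were 5 and 13. Seen from the single-cell side, 221 of 1410 genes 2-fold higher (15.7%) and 266 of 1713 genes 2-fold lower (15.5%) were members. Across the 14754 genes the Pearson correlation of the mean bulk ratio with the single-cell ratio of SW620 was 0.52, a description over genes, which are not independent replicates. In SW620-TET2CD 410 higher members (86.9%, background 48.2%) and 342 lower members (89.5%, background 50.9%) had the same sign, and 204 (43.2%, background 9.12%) and 267 (69.9%, background 14.8%) were at least 2-fold the same way.

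A test across the 8 single-cell libraries compared day 15 with day 6, with line and day as terms (edgeR quasi-likelihood, Benjamini-Hochberg adjusted, two-sided). The 2 lines served as the replicates of a day. A constant difference between the lines is taken up by the line term. Each p-value sets the day-15 difference against how far the lines departed from a shared course over the days, with 3 residual degrees of freedom. Because edgeR also pools this spread across genes, small p-values do not rest on those degrees of freedom alone. The test called 11052 of 17478 genes (63.2%, with 32.3% higher and 30.9% lower). With upper-quartile factors it called 6753 genes higher and 4582 lower, against 5654 and 5398 with TMM factors, so these shares depend on the scaling. Of 457 higher members tested, 363 (79.4%) rose, 19 fell and 75 did not pass. Of 365 lower members tested, 304 (83.3%) fell, 23 rose and 38 did not pass. All 31 mitosis genes and all 30 replication genes fell in this test. PLK1 fell by 3.08 ± 0.35 (SE) on the log2 scale (adjusted p = 1.66e-05, edgeR) and RRM2 fell by 3.63 ± 0.27 (adjusted p = 1.27e-06, edgeR). TNC fell by 2.63 ± 0.30 (adjusted p = 1.55e-05, edgeR). VIM fell by 0.89 ± 0.25 (adjusted p = 0.00751, edgeR), with ratios of -0.36 in SW620 and -1.51 in SW620-TET2CD. PRSS2 rose by 3.23 ± 0.18 (adjusted p = 3.40e-07, edgeR), from 5.39 to 58.6 CPM in SW620. DDIT4 rose by 5.85 ± 0.47 (adjusted p = 1.69e-06, edgeR), from 4.20 to 298 CPM in SW620.

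**Figure D4:**
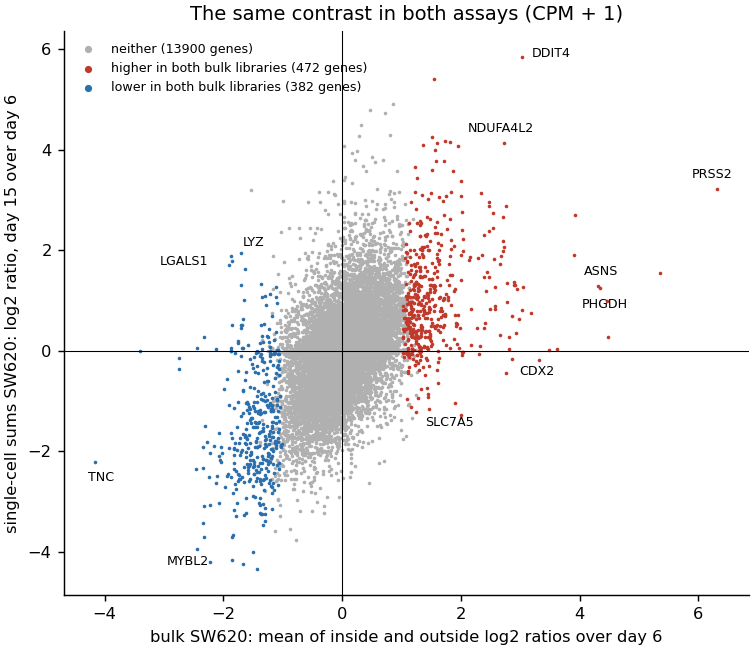
Each point is 1 of 14754 genes in both tables, with the mean of the inside and outside log2 ratios in bulk on the x axis and the log2 ratio of the single-cell sums of SW620, day 15 over day 6, on the y axis. Most higher members lie above 0 (417 of 472) and most lower members below it (333 of 382), with SLC7A5 among the exceptions on the right and LGALS1 and LYZ on the left.

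The stress-response genes did not all move in the single-cell sums. Of 19 tested, 10 rose and 4 fell, where 32.3% of all genes rose and 30.9% fell, and the median ratio in SW620 was 0.60. SLC7A11 rose by 3.19 ± 0.14 (adjusted p = 1.35e-07, edgeR), CHAC1 by 2.52 ± 0.20 (adjusted p = 1.49e-06, edgeR) and PHGDH by 1.07 ± 0.17 (adjusted p = 0.00017, edgeR). ASNS rose by 2.66 ± 0.27 (adjusted p = 7.77e-06, edgeR) from a low 0.589 CPM in SW620. PSAT1 fell by 0.83 ± 0.17 (adjusted p = 0.00109, edgeR) and SLC7A5 by 1.30 ± 0.14 (adjusted p = 1.16e-05, edgeR), both called higher in bulk. ATF5 and SLC3A2 also fell. PSPH, SHMT2 and MTHFD2, called higher in bulk, had differences of 0.02 ± 0.16, 0.11 ± 0.18 and -0.05 ± 0.15 with adjusted p from 0.615 to 0.902 (edgeR). PSPH, SHMT2 and MTHFD2 were thus called in bulk without passing the single-cell test, and PSAT1 and SLC7A5 ran opposite ways in the assays. The difference between the assays was not tested.

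Some lists had larger ratios in the single-cell sums than in bulk, a difference between assays that was not tested. The counts of this paragraph are to be read against 32.3% of all genes that rose and 30.9% that fell in the test. Of 21 HIF targets, 17 rose and none fell, and 14 were at least 2-fold higher in SW620 (background 9.56%) and 15 in SW620-TET2CD (background 9.12%). BNIP3L rose by 3.08 ± 0.18 (adjusted p = 4.08e-07, edgeR) and CA9 by 2.78 ± 0.24 (adjusted p = 2.97e-06, edgeR), against bulk ratios of -0.11 and -0.15 for BNIP3L and 0.44 and 0.30 for CA9. Of 18 CDK inhibitors and p53 targets, 15 rose and 1 fell. CDKN2B, the CDK4 and CDK6 inhibitor p15, rose by 3.90 ± 0.20 (adjusted p = 2.44e-07, edgeR), against bulk ratios of -0.02 and 0.06. Of 24 ribosome biogenesis genes, 23 fell and none rose. NCL, nucleolin, fell by 1.60 ± 0.19 (adjusted p = 2.83e-05, edgeR), against bulk ratios of -0.45 and -0.20. Of 32 nuclear OXPHOS subunits, 26 fell and none rose, with a median of -0.80 in SW620 against -0.32 and -0.25 in bulk. Capture and library chemistry differ between the assays. The sources do not say whether culture wells or cell dissociation also differed, and the part of each in these differences was not tested.

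A few called genes ran the other way in single cells, chosen as those farthest from their bulk direction with at least 10 TPM and 10 CPM. LGALS1, the lectin galectin-1, was at 765, 173 and 231 TPM in bulk. In the single-cell sums of SW620 it went from 643 CPM (95% Poisson interval 637 to 649) to 2108 CPM (2095 to 2121), intervals that cover counting error only. It was at 965 and 1116 CPM on days 9 and 12. LYZ, lysozyme, was at 13.7, 2.63 and 2.70 TPM in bulk and went from 5.65 to 22.0 CPM in single cells. CLIC3, a chloride intracellular channel protein, was at 19.1, 3.31 and 5.76 TPM in bulk and went from 16.2 to 64.9 CPM. All 3 were lower on day 15 in bulk and rose in the single-cell test (LGALS1 by 1.16 ± 0.25, adjusted p = 0.00175, edgeR). NR4A1, an immediate early nuclear receptor, was the fourth of this kind. In the other direction stood CST7, SLC7A5, SLC43A1 and FADS3. CST7, a cysteine protease inhibitor, was at 22.6, 76.8 and 115 TPM in bulk and went from 29.4 to 11.6 CPM in single cells. MYC had 138 and 98.5 CPM in the single-cell sums of days 6 and 15 (difference -0.33 ± 0.15, adjusted p = 0.0707, edgeR). CDX2 had 10.95 and 9.67 CPM (difference -0.07 ± 0.14, adjusted p = 0.663, edgeR). MT2A had 453 and 545 CPM (difference -0.11 ± 0.20, adjusted p = 0.654, edgeR).

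Over the intermediate days, which share the day-6 libraries, the members separated between days 9 and 12. In SW620 the median log2 ratio of the 472 higher members was 0.11 on day 9, 0.75 on day 12 and 0.91 on day 15. That of the 382 lower members was -0.04, -1.78 and -1.65. All genes in both tables had medians of 0.00, -0.01 and 0.00. In SW620-TET2CD the higher members had medians of 0.09, 0.65 and 0.82 and the lower members -0.16, -1.37 and -1.81. TNC was an early one, at 35.0, 12.9, 4.15 and 6.80 CPM on days 6, 9, 12 and 15 of SW620. PLK1 was at 77.2, 93.9, 5.24 and 11.6 CPM and RRM2 at 110, 90.4, 6.73 and 9.32 CPM. DDIT4 was at 4.20, 35.2, 161 and 298 CPM. PHGDH was at 17.0, 17.5, 18.1 and 41.8 CPM, so that its day-15 value alone stood apart. FABP1 was at 10.3, 14.9, 9.72 and 1.201 CPM. There is 1 library per line and day, and the order of the days was not tested.

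**Figure D5:**
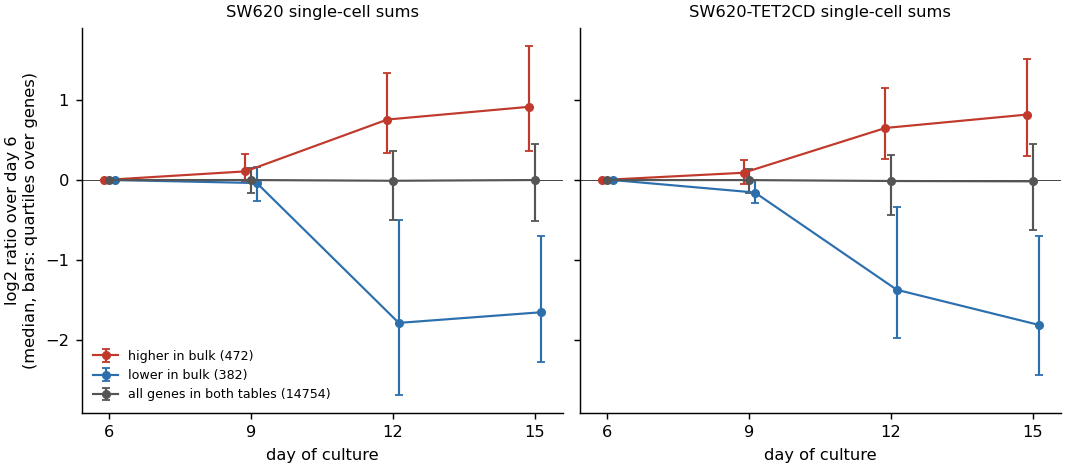
Log2 ratio over day 6 (y axis, CPM + 1) of the single-cell sums on days 9, 12 and 15 (x axis) in SW620 and SW620-TET2CD, for the genes higher in bulk, lower in bulk and all genes in both tables; points are medians and bars the quartiles over genes, 1 library per line and day. On day 9 the medians lie between -0.16 and 0.11, and by day 15 they lie at 0.91 and -1.65 in SW620.

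Among called lncRNAs with at least 10 TPM in 1 of the 3 libraries, 29 higher and 9 lower, the 4 with the highest and the 4 with the lowest nearer ratio are described. LINC01239 was at 3.18, 12.2 and 14.5 TPM in bulk and rose by 5.29 ± 0.32 in single cells (adjusted p = 4.56e-07, edgeR). AC007493.1 was at 28.7, 131 and 97.6 TPM and rose by 2.38 ± 0.15 (adjusted p = 4.68e-07, edgeR). LINC01226 was at 7.35, 30.1 and 31.9 TPM. AC009133.2 had no count on day 6 and 75 and 65 counts on day 15, and did not reach the single-cell test. AC105460.1, at 13.5, 2.69 and 4.63 TPM, fell by 1.92 ± 0.27 (adjusted p = 7.71e-05, edgeR). AC008517.1, AD000090.1 and FP671120.5, lower in bulk, had at most 0.129 CPM in the single-cell sums of SW620 on days 6 and 15.

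A bulk test with inside and outside as the 2 samples of day 15 left 1 residual degree of freedom (edgeR quasi-likelihood, two-sided). It called 5559 of 18199 genes (30.5%; 15.1% higher and 15.5% lower on day 15). The lone day-6 library is assumed to vary like the others, and if inside and outside came from the same wells its p-values are too small. With the SW620-TET2CD libraries of day 15 added, and line and location as terms, it called 566 genes, and DESeq2 called 2658 of 14220. The test uses the contrast of the rule and adds no support for the members.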

How the data were processed

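Bulk RNA was extracted with Trizol and made into TruSeq libraries. The authors deposited RSEM expected counts and TPM per Ensembl gene. The submitters' notes name Bowtie, RSEM and the mouse build mm10 without versions, although the gene identifiers are human, so which build served the bulk files is uncertain. The authors' single-cell counts are UMI counts from Cell Ranger 4.0 with GRCh38. Deposited expected counts were rounded, scaled with TMM factors in edgeR 4.0.16 (R 4.3.3) and expressed as CPM, with 1 CPM added before ratios were taken. Of 60669 listed genes, 45 copies on the Y pseudoautosomal region were left out. Genes needed 1 CPM in 1 of the 3 libraries. Gene types and positions came from GENCODE v44 on GRCh38, and promoter windows from RefSeq, 1 per gene, nearest the MANE Select start.

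The limits that the study set on cells (gene number from 200 to 4500, UMI total from 1000 to 20000, mitochondrial share up to 10%) left 48282 of 67056 barcodes. The study states fewer cells both before and after its filter, and the source of the difference was not tested. Doublets were treated by these limits alone. UMIs were summed per library and tested with edgeR's quasi-likelihood test, with line and day as terms and Benjamini-Hochberg adjustment. The standard errors given after ± were not estimated directly but derived from the log2 difference and the F statistic of that test. The bulk day test used 3 libraries. Both tests were also run on simulated counts. These were drawn for independent libraries at a fixed dispersion, unlike fractions that may come from the same wells. Alternatives were other scaling, pseudocounts, filters and fold limits, DESeq2 1.42.0, and each library left out.

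Named genes were the 12 coding genes of at least 10 TPM with the highest and the 12 with the lowest nearer ratio, 4 per list, the genes in the text of the study, 4 per direction that ran the other way in single cells, 4 lncRNAs per direction by the same TPM limit and ratio, and 3 on each side of the limit. Other list members are named after their values were seen. The members and the gene lists were chosen with earlier results of these data known.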

Additional observations from a re-analysis of the deposited data

How the results depend on the processing

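The counts of 503 higher and 408 lower genes depended most on the pseudocount and the fold limit. With 0.1 CPM added they were 901 and 648, and with 5 CPM added 220 and 204. At 1.5-fold they were 1538 and 1282, and at 4-fold 62 and 17. In deposited TPM they were 466 and 647, of which 317 and 328 were shared with the genes called in CPM. With 1 day-15 library left out they ranged from 653 to 716 higher and from 513 to 622 lower, and the 622 came from the inside library alone. Upper-quartile factors, DESeq2 size factors and both other filters kept the counts within 1.5 times. The bulk day test called 2658 genes by DESeq2 and 566 with 5 libraries, against 5559. For the members higher in bulk: direction in the single-cell sums was the same for 95.2% of the 62 genes at 4-fold, against 88.3% at 2-fold. Of 27 gene lists, 10 had a bulk median in TPM that moved by more than the standard deviation of their inside and outside medians. By the same measure 6 lists moved with 0.1 CPM added and 4 with upper-quartile factors. The single-cell test called 8732 to 11450 genes with 1 library left out, against 11052. Upper-quartile factors shifted the single-cell day-15 ratios by 0.11 in SW620 and 0.23 in SW620-TET2CD on the log2 scale. Of 85 called genes that the text rule names, 81 stayed called with upper-quartile factors, 82 with DESeq2 size factors, 79 in TPM and 63 with 5 CPM added. With 1 CPM asked of each library 75 stayed called, and at 4-fold 30 did. The cause of these shifts was not tested. No paired analysis was possible because each bulk condition had 1 library. With 1 library per condition, the bulk values cannot tell day from culture, harvest or library, and genes near the floor of 3 counts carry the widest counting error.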
